A study of Homo sapiens with 60 samples.

Results

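The 34 genes described here encode most subunits of the 26S proteasome: the 7 alpha ring and 7 constitutive beta ring genes of the 20S core, the 3 inducible catalytic genes PSMB8, PSMB9 and PSMB10, and 6 ATPase and 11 non-ATPase genes of the 19S regulatory particle. They were found by matching the Ensembl identifiers of listed subunits to the rows of the deposited table. All 34 were found among the 60675 identifiers, and all 34 were among the 17792 genes with enough reads to test. RNA-seq was measured in SW1783 cells, an established human astrocytoma line, 24 h after treatment, in 60 libraries that form 20 groups of 3. Vehicle cells received 0.1% DMSO by the sample labels, a content that the series text gives otherwise, and the files do not settle it. Wortmannin, an inhibitor of phosphoinositide 3-kinases, was given at 10 µM. The other 18 groups received water extracts of Liriopis seu Ophiopogonis Tuber, Schisandrae Fructus, Longan Arillus, Zizyphi Semen or Aucklandiae Radix at 500, 100 or 20 µg/mL, or of Polygalae Radix at 250, 50 or 10 µg/mL, called high, medium and low. For wortmannin and the extracts the labels leave the DMSO content unstated. All groups are the same line with no added allele. The labels do not say whether the 3 libraries within each group are from different cultures, so a p-value reflects the spread among these libraries, which may be technical.

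The proteasome degrades proteins tagged with ubiquitin chains. The 20S core is a barrel of 4 stacked rings whose inner beta subunits hold the cutting sites, and its outer alpha rings gate the entrance. The 19S particle binds the tagged protein, removes the chain and unfolds the protein with a ring of ATPases. Interferon and related signals can replace the constitutive catalytic subunits by those of PSMB8, PSMB9 and PSMB10, the immunoproteasome, which favours peptides for display on class I molecules. In many cells the factor NRF1, encoded by NFE2L1, raises subunit genes together when proteasome activity is short.

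Library totals ran from 9.34 to 35.35 M counts, and mitochondrial reads took 7.79% to 13.4% of them. Of the genes used to check the cell type, VIM (4790 CPM, the count scaled to library size with TMM factors), CD44 (2820 CPM) and CHI3L1 (748 CPM) were abundant in vehicle cells, whereas the glial genes GFAP and S100B had too few counts to test. In the low Schisandrae group, 0% of all genes were called against vehicle. There the other tested astrocytoma genes were lower, at 7.08 to 78.3 CPM, and tested neuron genes ran from 0.269 to 110 CPM. Of the leukocyte genes, CD3E, ITGAM, LYZ and AIF1 were at or near 0, CD14 was at 0.184 CPM, and CD68 (180 CPM) and PTPRC (10.1 CPM) were present in vehicle cells. The first part of each library name differs between vehicle (A1), wortmannin (1), Liriopis and Schisandrae (2), Longan and Zizyphi (3), and Polygalae and Aucklandiae (4). No label says what it marks, and against vehicle it cannot be told apart from the treatment, while the doses of a herb share it. In these bulk libraries, fewer cells of a type and less RNA per cell cannot be told apart. One library, Liriopis_high replicate 1, stood apart: its mean correlation with the other 2 of its group was 0.945, against 0.967 to 0.993 for all others. Because all 60 libraries share 1 estimate of spread, each count over the 34 members below that changes without that library is given both ways.

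Promoter sequence is shown for 4 members whose levels are described below: PSMB9, which fell under Aucklandiae, PSMD12 and PSMC6, which rose under Polygalae, and PSMD1, which fell under it. Each is the exon-free stretch next to the gene's start, 5′ to 3′ on the strand of the gene, from RefSeq (GRCh38.p14). Capitals mark a match to a searched motif. The PSMB9 stretch lies between the exons of TAP1 and PSMB9, chr6:32853979-32854147 on the plus strand, and its capitals are the other-strand form of TGACNNNGC, the core of the element bound by NRF1 and NRF2. The PSMD12 stretch, chr17:67366628-67366827 on the minus strand, holds the same motif in its forward form. The PSMC6 stretch, chr14:52706950-52707171 on the plus strand, holds CCGGAAG, a core bound by ETS-family factors. The PSMD1 stretch, chr2:231056617-231056863 on the plus strand, held none of the 5 motifs searched.
PSMB9: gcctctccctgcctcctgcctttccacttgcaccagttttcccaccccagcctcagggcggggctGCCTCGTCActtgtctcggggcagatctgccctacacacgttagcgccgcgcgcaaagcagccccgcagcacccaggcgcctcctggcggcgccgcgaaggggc
PSMD12: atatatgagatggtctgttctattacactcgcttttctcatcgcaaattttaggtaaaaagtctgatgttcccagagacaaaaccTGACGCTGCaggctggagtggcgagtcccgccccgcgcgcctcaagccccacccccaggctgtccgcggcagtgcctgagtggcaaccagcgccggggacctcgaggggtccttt
PSMC6: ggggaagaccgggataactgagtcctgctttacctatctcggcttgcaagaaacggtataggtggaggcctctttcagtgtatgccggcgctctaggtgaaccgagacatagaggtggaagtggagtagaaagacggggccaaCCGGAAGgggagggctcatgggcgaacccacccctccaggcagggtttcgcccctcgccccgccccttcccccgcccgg
PSMD1: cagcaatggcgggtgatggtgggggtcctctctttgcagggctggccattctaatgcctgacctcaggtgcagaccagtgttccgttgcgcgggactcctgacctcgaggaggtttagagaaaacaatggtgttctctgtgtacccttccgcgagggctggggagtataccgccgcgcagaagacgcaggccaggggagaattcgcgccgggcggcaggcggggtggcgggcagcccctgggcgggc
The motifs were searched on both strands in the 250 bases before each start, in 35116 windows of all genes and in 36 windows of 29 of the 34 members. PSMA7, PSMB1, PSMB6, PSMB7 and PSMD4 had no entry. TGACNNNGC (other strand GCNNNGTCA) was in 10.9% of all windows and in 6 of the members' 36, those of PSMA4, PSMB3, PSMB9, PSMC5, PSMD3 and PSMD12. CCGGAAG was in 8.52% of all windows and in 6 of the members', those of PSMC2, PSMC6, PSMD6, PSMD8, PSMD12 and PSMD13. The motif TTCNNNGAA, which reads the same on both strands, was in 6.57% of all windows and in those of PSMA2, PSMB5, PSMB8, PSMC4 and PSMD3. The core of the interferon-stimulated response element was in 3.02% of all windows and in those of PSMA4, PSMB4 and PSMB10. The box CCAAT was in 32% of all windows and in 15 of the members'. A match gives only the presence of these letters.

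In vehicle cells the members spanned a wide range of level per kilobase of the principal transcript. PSMD2, the large scaffold of the 19S base, was highest at 231 CPM per kb. The 20S genes PSMA7, PSMB7 and PSMB3 followed at 166, 156 and 149 CPM per kb. The inducible genes were at or near the bottom of that scale, with PSMB10 at 9.83, PSMB9 at 16 and PSMB8 at 24.9 CPM per kb. PSMA5 stood between them at 21.4. That place depends on the transcript lengths used, 3729 bases for PSMA5 and 1124 for PSMB8. The constitutive counterparts of the inducible genes were higher on the same scale: PSMB5 at 67.9, PSMB6 at 104 and PSMB7 at 156 CPM per kb. The ATPase genes lay between 30.8 (PSMC6) and 84.2 CPM per kb (PSMC5). Exons of 14 of the 34 members share bases with another gene, so their counts can hold reads of a neighbour. The longest overlaps on the same strand are 919 bases of PSMA6 with AL121594.1, 814 of PSMA1 with AC018523.2, 781 of PSMA2 with AC010132.3 and 644 of PSMB10 with AC040162.1. On opposite strands PSMC1 shares 4671 bases with NRDE2, PSMC5 shares 874 with FTSJ3 and PSMD1 shares 559 with HTR2B. Also on opposite strands, PSMD11 shares 675 with the antisense gene AC005899.8, and PSMB8 and PSMB9 share 139.

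**Figure D1:**
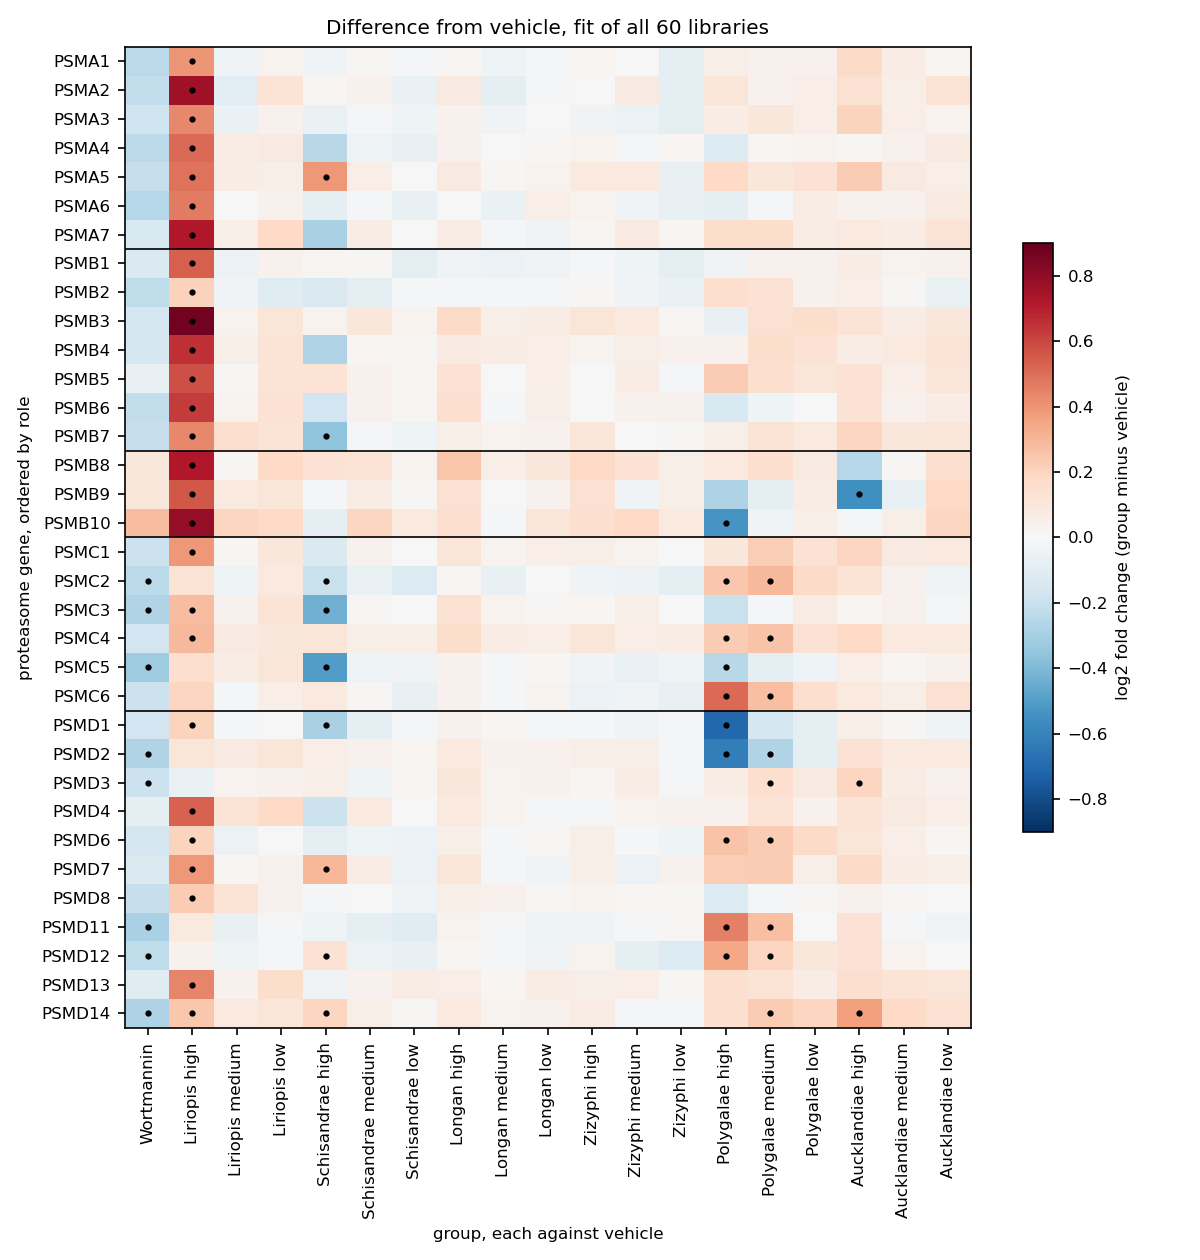
Log2 fold change of each of the 34 proteasome genes (rows, ordered as alpha ring, beta ring, inducible catalytic, ATPase and non-ATPase genes, with lines between them) in each of 19 treated groups against vehicle (columns), in the fit of all 60 libraries. Dots mark an adjusted p under 0.05; the Liriopis high column rests on 1 library, and most extract groups at medium and low dose have no dot.

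The largest rise of proteasome genes in the series belonged to 1 library. In Liriopis_high replicate 1, 24 of the 34 members were more than 1.5-fold above the vehicle mean, where 22.1% of all tested genes were, and in every other library 0 members were. PSMA7, an alpha ring gene, was at 456 CPM in that library and at 167 and 192 CPM in replicates 2 and 3, against 175, 159 and 161 CPM in vehicle. PSMB3, a structural beta gene, was at 383 CPM in replicate 1 and at 119 and 131 CPM in the others, against 126, 118 and 103 CPM in vehicle. Replicates 2 and 3 thus lay close to the vehicle libraries while replicate 1 lay far above them. PSMD2 (1.1-fold) and PSMD3 (0.888-fold) were the members that moved least in replicate 1, and both are 19S non-ATPase genes, with transcripts of 3449 and 2158 bases. The median log2 ratio of the members to the vehicle mean was 0.96 in replicate 1, 0.01 in replicate 2 and 0.06 in replicate 3. Over all genes of that library the same ratio fell with transcript length: its median was 1.21 for transcripts of up to 1000 bases (681 genes), 0.63 above 1000 and up to 2000 (2678 genes), 0.02 above 2000 and up to 4000 (5425 genes) and -0.57 above 4000 (5041 genes). In replicates 2 and 3 the corresponding medians stayed between -0.05 and 0.06. Across the 31 members outside the inducible genes, which share this library and its depth, the ratio in replicate 1 had r = -0.6 and rho = -0.66 with log2 transcript length, a description only. The part of transcript length in the rise was not tested.

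**Figure D2:**
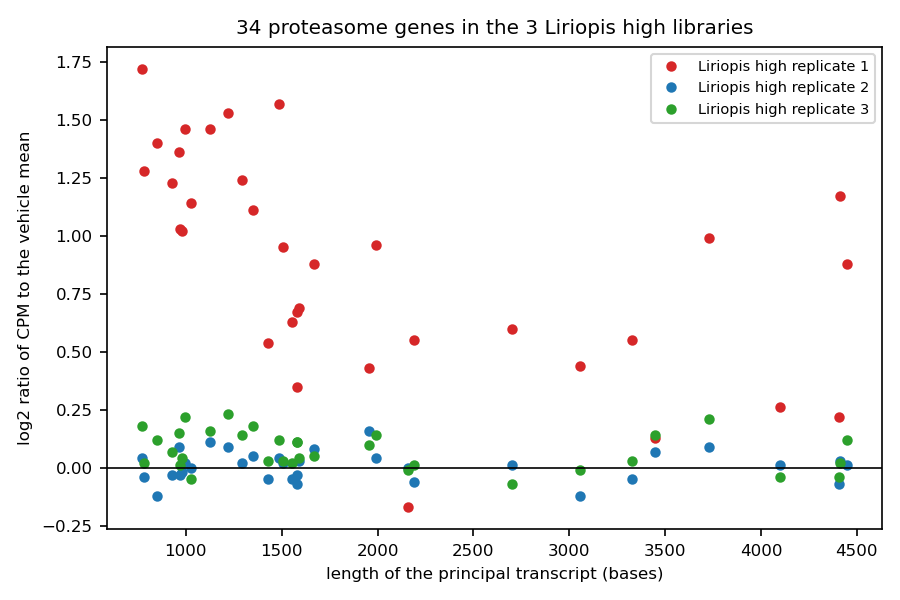
Log2 ratio of CPM to the vehicle mean (vertical) against the length of the principal transcript in bases (horizontal) for the 34 proteasome genes in the 3 Liriopis high libraries. Replicate 1 (red) has a median of 0.96 with its highest values at short transcripts, and replicates 2 (blue) and 3 (green) lie near 0.

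The test of the high Liriopis dose followed that library. With all 60 libraries, 27 of 34 members rose against vehicle and 0 fell, with a median log2 fold change of 0.41, where 18.7% of all genes rose. Without replicate 1 the count was 0, the median was 0.03 and 0.00553% of all genes were called. Against the low dose 18 members rose, where 11.8% of all genes did, and 0 were called without replicate 1, where 0% of all genes were. That count was also 0 without Liriopis_low replicate 2, 3 without Liriopis_low replicate 3, and 28 without Liriopis_high replicate 2 or replicate 3. For these last fits the share of all genes called is not given here, so their counts describe the fits and not the members alone. At the medium and low doses 0 members were called against vehicle, where 0.0112% and 0.00562% of all genes were.

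Under wortmannin nearly the whole proteasome set sat slightly below vehicle. All 31 members outside the inducible genes had a negative log2 fold change, from -0.32 to -0.07, and the median of the 34 was -0.19 against 0.01 for all genes. In the fit of all 60 libraries 8 members fell and 0 rose, where 6.52% of all genes fell, and all 8 belong to the 19S particle. That fit left the core gene PSMA6 uncalled at -0.26 and called PSMD3 at -0.19. Its calls therefore do not set the core apart by size of change. Without Liriopis_high replicate 1 the fold changes were nearly the same with smaller standard errors, and 24 fell, where 12.3% of all genes fell: 6 of 7 alpha, 4 of 7 beta, 6 of 6 ATPase and 8 of 11 non-ATPase genes. PSMB10 rose in that fit, where 10.4% of all genes rose.

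PSMC5, an ATPase of the 19S base, had 109, 105 and 105 CPM under wortmannin and 142, 129 and 128 CPM in vehicle. The groups did not overlap, and PSMC5 fell by 0.32 on the log2 scale (SE 0.07, edgeR adjusted p = 0.00054). PSMD2 had 654, 665 and 662 CPM against 827, 770 and 796 CPM. All 3 treated libraries were below all 3 vehicle libraries, and PSMD2 fell by 0.27 (SE 0.05, edgeR adjusted p = 5.8e-05). PSMD14, the enzyme that cuts the ubiquitin chain from the substrate, had 53.3, 53.7 and 50.8 CPM against 68, 62.9 and 61.1 CPM and fell by 0.28 (SE 0.07, edgeR adjusted p = 0.0029) with no overlap. PSMD11, a subunit of the 19S lid, fell by 0.29 from 158 ± 5.89 to 130 ± 5.62 CPM (SD, n = 3; edgeR adjusted p = 0.0012). The others that fell in both fits were PSMC2, PSMC3, PSMD3 and PSMD12, by 0.19 to 0.27. Of the 20S core, PSMA6 (-0.26) and PSMA1 (-0.24) passed the test in the fit without Liriopis_high replicate 1 alone, and the catalytic gene PSMB5 had the smallest difference at -0.07. The inducible genes lay on the other side: PSMB8 0.10, PSMB9 0.10 and PSMB10 0.28, none of them past the threshold in the fit of all libraries. PSMB10 had 15.4, 13.3 and 14.8 CPM against 14.2, 10.6 and 11.1 CPM, so the groups overlapped, and its adjusted p without Liriopis_high replicate 1 was 0.021 in edgeR. The summed level of the astrocytoma genes was 8420 to 8750 CPM under wortmannin and 8410 to 8530 CPM in vehicle.

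**Figure D3:**
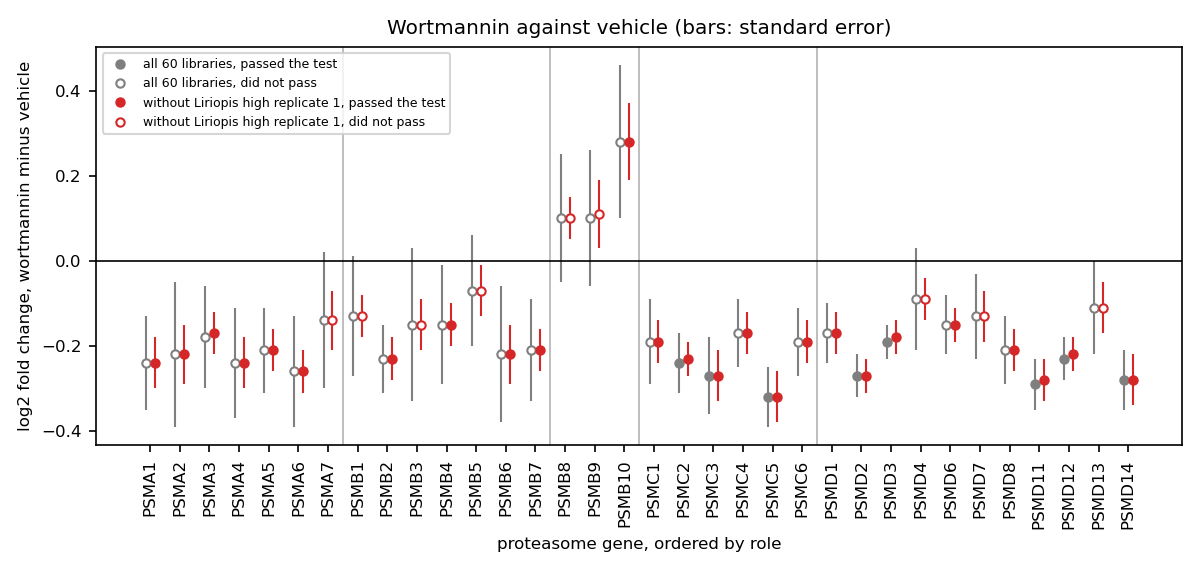
Log2 fold change of the 34 proteasome genes, wortmannin minus vehicle (vertical), with bars of 1 standard error, in the fit of all 60 libraries (grey) and without Liriopis high replicate 1 (red). Filled points had an adjusted p under 0.05; points outside PSMB8, PSMB9 and PSMB10 lie below 0, from -0.32 to -0.07, and the grey bars are the longer ones.

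Under Polygalae Radix, genes of the regulatory particle moved in opposite directions. At 250 µg/mL, 6 of 34 members rose and 4 fell, where 46.1% of all genes were called, and without Liriopis_high replicate 1 the counts were 13 and 7, where 54% were. With all libraries the share of members called was below that of all genes, and without that library it was close to it. The 20S core had 0 calls with all libraries (medians 0.07 for the alpha and 0.04 for the beta ring), and 9 of the 10 calls were in the 19S particle. In the fit that leaves out Liriopis_high replicate 1 the core genes PSMA5 (0.18), PSMA7 (0.16), PSMB2 (0.16) and PSMB5 (0.23) rose too, and 14 of the 20 calls were in the 19S particle. Scaling to library totals alone moved the median of all genes by 0.18 and gave 14 members up and 2 down. For this and the other counts under library totals, the share of all genes called is not given here. TMM factors were 1.08 to 1.12 in these libraries and 0.98 in vehicle, and the directions below are relative to that scaling.

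PSMD1 and PSMD2, which form the scaffold of the 19S base and dock ubiquitin receptors, had the deepest falls. PSMD1 had 102, 90.3 and 90.6 CPM at the high dose, 131, 145 and 139 at the medium, 147, 140 and 147 at the low, and 149, 151 and 162 CPM in vehicle. The high dose libraries lay below all the others, and PSMD1 fell by 0.71 on the log2 scale against vehicle (SE 0.08, edgeR adjusted p = 5.9e-11) and by 0.62 against the low dose (SE 0.08, edgeR adjusted p = 4.5e-09). PSMD2 had 526, 517 and 514 CPM at the high dose, 680, 637 and 666 at the medium, 786, 737 and 743 at the low, and 827, 770 and 796 CPM in vehicle. Its high and medium libraries were below all vehicle libraries and in order of dose, with a fall of 0.62 (SE 0.05, edgeR adjusted p = 4e-15) at the high and 0.27 (SE 0.05, edgeR adjusted p = 1.3e-05) at the medium dose.

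PSMC6, an ATPase of the base, rose over the same doses. It had 92.4, 96.1 and 98.8 CPM at the high dose, 74.5, 86.1 and 83.2 at the medium, 76.5, 73.2 and 75.4 at the low, and 67.8, 68.4 and 66.2 CPM in vehicle. No treated library overlapped vehicle, and PSMC6 rose by 0.51 at the high dose (SE 0.08, edgeR adjusted p = 7.4e-07) and 0.27 at the medium (SE 0.08, adjusted p = 0.0078). PSMD11 had 236, 215 and 197 CPM at the high dose against 154, 156 and 165 CPM in vehicle, a rise of 0.45 (SE 0.06, edgeR adjusted p = 4.7e-08) with no overlap. PSMD12, a neighbour of PSMD11 in the lid, had 149, 157 and 155 CPM against 119, 123 and 121 CPM and rose by 0.35 (SE 0.05, edgeR adjusted p = 1.5e-07). PSMD6 (0.26), PSMC2 (0.24) and PSMC4 (0.23) also rose, and PSMC5 fell by 0.25 in the same ring of ATPases. The high-dose RNA of these genes, which encode subunits of 1 complex, ranged from 0.71 below to 0.51 above vehicle in log2. Protein was not measured. Per kilobase, PSMD2 went from 231 to 150 CPM per kb and PSMC6 from 30.8 to 43.8. PSMD2 remained more abundant than PSMC6 on that scale.

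**Figure D4:**
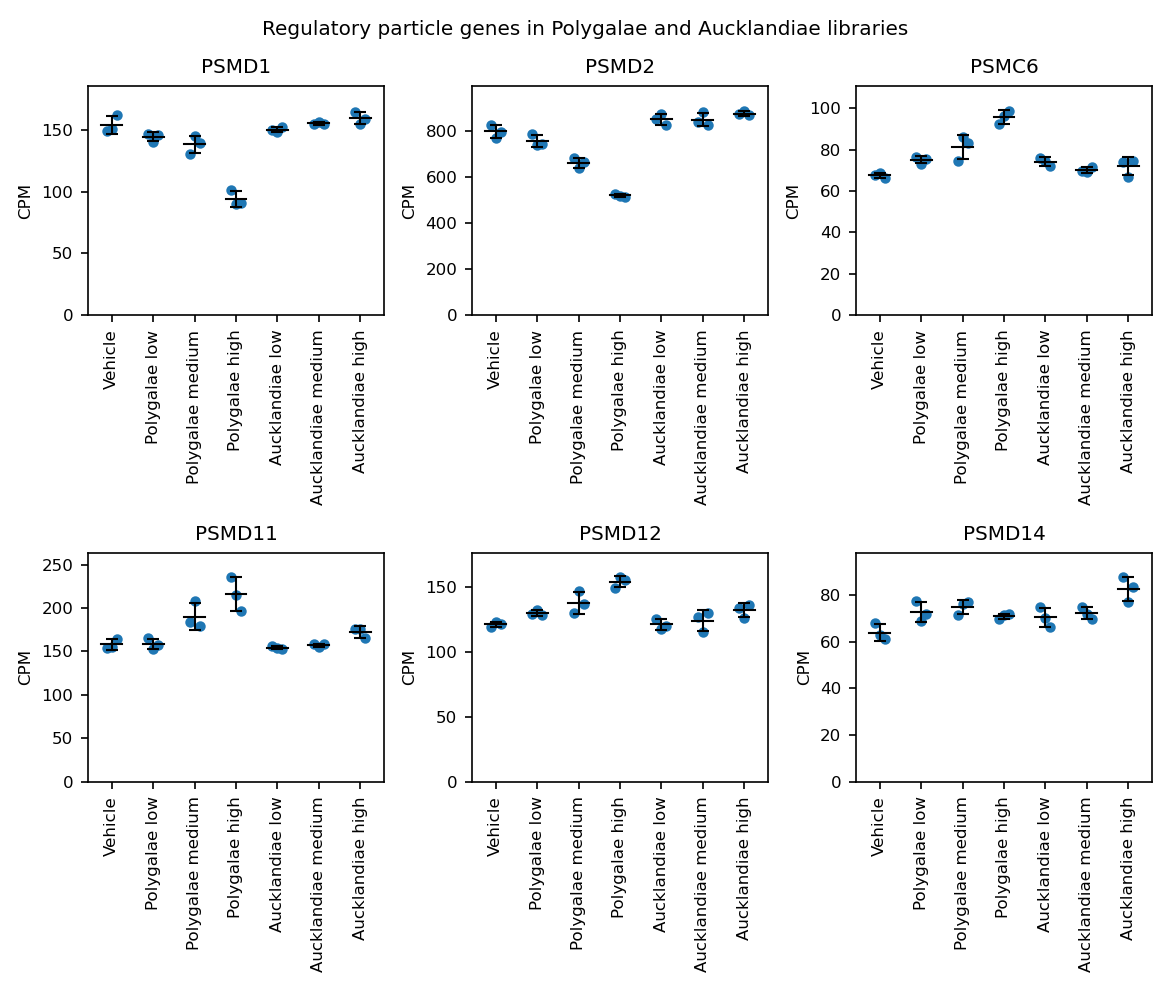
CPM of 6 regulatory particle genes in single libraries (points) of vehicle and of the 3 doses of Polygalae and Aucklandiae, with the mean and SD of n = 3 (lines and bars). PSMD1 and PSMD2 are lowest and PSMC6, PSMD11 and PSMD12 highest at the high Polygalae dose, and PSMD14 is highest at the high Aucklandiae dose.

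At the medium dose of Polygalae the rises outnumbered the falls. PSMC2 (0.29), PSMC4, PSMC6, PSMD3, PSMD6, PSMD11, PSMD12 and PSMD14 (0.23) rose and PSMD2 fell, 8 and 1 of 34, where 30.1% of all genes were called. Without Liriopis_high replicate 1 the counts were 16 and 2, where 40.4% were. At the low dose 0 were called, where 6.46% of all genes were, and without that library PSMC2, PSMC6, PSMD6 and PSMD14 rose by 0.16 to 0.19, where 13.9% were. High against low dose, 3 members rose and 5 fell, where 36.2% of all genes were called; without Liriopis_high replicate 1 these were 5 and 10, where 45.7% were. PSMB10, PSMC3 and PSMC5 fell there beside PSMD1 and PSMD2. Medium against low dose, PSMD11 rose by 0.26 and PSMD2 fell by 0.19, where 10.9% of all genes were called. Without Liriopis_high replicate 1, 4 rose and 1 fell, where 20.2% were. Without Polygalae_medium replicate 2, 1 member was called, and the share of all genes in that fit is not given here. Under library totals alone the splits were 11 up and 1 down at the medium dose, 4 and 0 at the low, and 8 and 3 for high against low. In the high dose libraries the summed astrocytoma genes were at 4150 to 4490 CPM, against 8410 to 8530 CPM in vehicle. VIM and CD44 make up most of that sum, with means of 1870 and 1710 CPM at the high dose. At the low dose they were at 4220 and 2470 CPM. CHI3L1 of the same list was at 642 CPM at the high and 676 CPM at the low dose. Mitochondrial reads of the high dose libraries were 12.4% to 13.4%, against 10.3% to 10.6% in vehicle. PTPRC was at 1.64, 1.67 and 1.28 CPM in these high dose libraries, against 9.39, 10.6 and 10.3 CPM in vehicle. The summed leukocyte genes were at 183 to 196 CPM against 185 to 196 CPM. Their part in these differences was not tested.

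Among the inducible catalytic genes, PSMB9 fell under the high dose of Aucklandiae Radix and PSMB10 under that of Polygalae Radix with all libraries, beside the 19S genes described for each. PSMB9 had 8.88, 8.2 and 8.51 CPM at the high dose of Aucklandiae, 11.4, 11.3 and 13.1 at the medium, 14.7, 14 and 13.6 at the low, and 13.3, 12.3 and 11.8 CPM in vehicle. The high dose libraries were below all others of these groups, and PSMB9 fell by 0.55 against vehicle (SE 0.17, edgeR adjusted p = 0.022) and by 0.73 against the low dose (SE 0.17, edgeR adjusted p = 0.0022). PSMB8 had 23, 23.4 and 23.7 CPM at that dose and 27.9, 28.8 and 27.2 CPM in vehicle, with no overlap. Its difference of -0.26 passed only without Liriopis_high replicate 1 (SE 0.06, edgeR adjusted p = 0.00035). PSMB10 did not follow them, at 11.9 ± 0.622 CPM against 12 ± 1.96 CPM in vehicle (SD, n = 3). TAP1, the peptide transporter gene that shares the promoter stretch printed above with PSMB9, had 70.8, 74.2 and 75.1 CPM against 69.8, 66.2 and 69.3 CPM, a difference of 0.10 that did not pass (edgeR adjusted p = 0.26).

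Under Polygalae, PSMB10 had 7.36, 8.21 and 9.44 CPM at the high dose, 12.9, 13 and 11.5 at the low, and 14.2, 10.6 and 11.1 CPM in vehicle. The high dose libraries were below the rest, and PSMB10 fell by 0.53 against vehicle (SE 0.18, edgeR adjusted p = 0.016) and by 0.59 against the low dose (SE 0.19, edgeR adjusted p = 0.01). PSMB9 was at 10.3 ± 0.372 CPM (SD, n = 3), a difference of -0.27 that passed only without Liriopis_high replicate 1 (edgeR adjusted p = 0.0073), and PSMB8 differed by 0.09. These genes have few reads beside the other members, and the deposited expected counts of PSMB10 differed from whole numbers, with no tolerance, in 100% of the libraries.

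**Figure D5:**
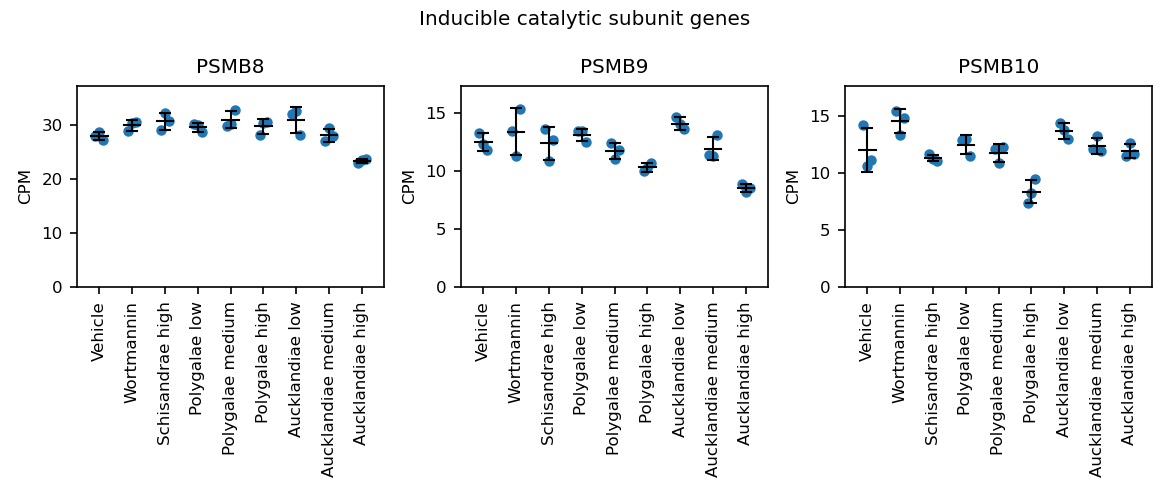
CPM of the inducible catalytic genes PSMB8, PSMB9 and PSMB10 in single libraries (points) of 9 groups, with the mean and SD of n = 3 (lines and bars). PSMB8 and PSMB9 are lowest at the high Aucklandiae dose (23 to 23.7 and 8.2 to 8.88 CPM), and PSMB10 is lowest at the high Polygalae dose (7.36 to 9.44 CPM).

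The rest of the proteasome genes were slightly above vehicle at the high dose of Aucklandiae. All 31 members outside the inducible genes had a log2 fold change of at least 0.01, with a median of 0.13. Their mean log2 CPM, centred over the groups, was -0.03 in vehicle and 0.02, 0.03 and 0.09 at the low, medium and high doses. It thus lay above vehicle at every dose of this herb. With all libraries 2 members rose and 1 fell, where 13.2% of all genes were called, and without Liriopis_high replicate 1 these were 13 and 2, where 22.8% were. PSMD14 had 87.7, 77.2 and 83.5 CPM against 68, 62.9 and 61.1 CPM in vehicle and rose by 0.37 (SE 0.07, edgeR adjusted p = 6.1e-05) with no overlap. PSMD3, a scaffold of the 19S lid, rose by 0.19 (SE 0.04, edgeR adjusted p = 0.00069). Without Liriopis_high replicate 1 the rises also took in PSMA1, PSMA3, PSMA5, PSMB7, PSMC1, PSMC2, PSMC4, PSMD2, PSMD7, PSMD12 and PSMD13, by 0.12 to 0.23. Against the low dose, PSMD3 and PSMD14 rose and PSMB9 fell, where 10.6% of all genes were called. Without Liriopis_high replicate 1, 7 rose and 2 fell, where 19.3% were. Without Aucklandiae_low replicate 3 there was 1 call, and the share of all genes in that fit is not given here. At the medium and low doses 0 members were called, where 0.455% and 0.00562% of all genes were. At the high dose mitochondrial reads were 8.77% to 8.98%, against 10.3% to 10.6% in vehicle. The summed astrocytoma genes were at 8610 to 8820 CPM and the summed leukocyte genes at 190 to 215 CPM, with PTPRC at 4.95, 4.8 and 4.73 CPM. Their part in these differences was not tested.

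Schisandrae Fructus at 500 µg/mL changed many genes, and among them members of the core and of the regulatory particle in both directions. Against vehicle 4 rose and 5 fell, where 50.9% of all genes were called, and without Liriopis_high replicate 1 these were 6 and 12, where 58.6% were. The share of members called was thus below that of all genes with all libraries, and near it without that library. PSMA5, an alpha ring gene, had 101, 108 and 104 CPM against 84.2, 79.7 and 75 CPM in vehicle. The groups did not overlap, and PSMA5 rose by 0.39 (SE 0.1, edgeR adjusted p = 0.001). PSMD7, a lid subunit that pairs with PSMD14, rose by 0.30, PSMD14 by 0.19 and PSMD12 by 0.13. PSMC5 had 90.6, 98.9 and 92.3 CPM against 142, 129 and 128 CPM and fell by 0.50 (SE 0.07, edgeR adjusted p = 1.5e-08) with no overlap. PSMC3, another ATPase of the same ring, had 80.2, 82.6 and 79.6 CPM against 116, 105 and 104 CPM and fell by 0.43 (SE 0.09, edgeR adjusted p = 0.00019). PSMB7, which carries the trypsin-like site, fell by 0.36, PSMD1 by 0.29 and PSMC2 by 0.20. PSMD2, the partner of PSMD1, was at 834 ± 30.9 CPM against 798 ± 28.6 CPM in vehicle (SD, n = 3) and did not pass. The genes that passed only without Liriopis_high replicate 1 included PSMA7 (-0.29), PSMB4 (-0.27) and PSMA4 (-0.25), and the calls by role were then 1 up and 2 down of 7 alpha, 4 down of 7 beta, 1 up of 3 inducible, 1 up and 4 down of 6 ATPase, and 3 up and 2 down of 11 non-ATPase genes. High against low dose, 4 rose and 4 fell, where 49.7% of all genes were called, and without that library 5 and 11, where 57.6% were. At the medium and low doses 0 members were called against vehicle, where 1.02% and 0% of all genes were, and 0 between these doses, where 0.332% were. At the high dose the summed astrocytoma genes were at 7020 to 7350 CPM. Among them CD44 had a mean of 1720 CPM against 2760 CPM at the low dose, and VIM 4780 against 4620 CPM. At the high dose the summed leukocyte genes were at 206 to 239 CPM with PTPRC at 2.08, 1.96 and 2.31 CPM, and mitochondrial reads at 7.79% to 9.6%. Their part was not tested.

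Pairs of herbs whose libraries share the first part of their name were compared at the high dose. Polygalae at 250 µg/mL against Aucklandiae at 500 µg/mL gave 3 members up and 7 down, where 45.6% of all genes were called, and 7 and 13 without Liriopis_high replicate 1, where 53.8% were. The log2 difference, Polygalae minus Aucklandiae, was -0.76 for PSMD1 and -0.75 for PSMD2, and PSMC6 was higher by 0.41 and PSMD11 by 0.32. The doses differ, and under library totals alone 9 were up and 3 down. Schisandrae against Liriopis gave 1 up and 25 down, where 59.7% of all genes were called, and 3 and 11 without Liriopis_high replicate 1, where 53.6% were. In that second fit PSMC5 (-0.55), PSMC3 (-0.46), PSMA7 (-0.42), PSMB4 (-0.39) and PSMB7 (-0.37) had the deepest falls, and PSMA5, PSMD7 and PSMD12 rose. Zizyphi against Longan gave 0 calls, where 1.01% of all genes were called.

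The change from the low to the high dose was then compared between herbs, a comparison added after the data had been seen. Polygalae differed from Aucklandiae in 6 members, 2 higher and 4 lower, where 22.8% of all genes were called. Without Liriopis_high replicate 1 these were 4 and 9, where 33% were. Without Polygalae_high replicate 1 there were 3, and the share of all genes in that fit is not given here. The dose effect of Polygalae minus that of Aucklandiae was -0.70 for PSMD1 (SE 0.11, edgeR adjusted p = 1.2e-06) and -0.58 for PSMD2 (SE 0.07, edgeR adjusted p = 3.1e-09), and 0.40 for PSMC6 (SE 0.11, edgeR adjusted p = 0.0074). Schisandrae differed from Polygalae in 5 members, 3 higher and 2 lower, where 41% of all genes were called; without Liriopis_high replicate 1 these were 7 and 11, where 50.1% were. The dose effect of Schisandrae minus that of Polygalae was 0.59 for PSMD2 (SE 0.07, edgeR adjusted p = 9.2e-10) and -0.38 for PSMD11 (SE 0.09, edgeR adjusted p = 0.00057). The count of members for this second comparison was 3 without Schisandrae_high replicate 3, Polygalae_high replicate 3 or Polygalae_low replicate 3. The share of all genes called in those fits is not given here. Under library totals alone the splits were 4 and 2 for the first comparison and 1 and 9 for the second.

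No proteasome gene passed under Longan Arillus or Zizyphi Semen with all libraries. For Longan 0 members were called at the high, medium and low doses, where 0.843%, 0.0281% and 0.00562% of all genes were, and 0 between high and low, where 0.247% were. Without Liriopis_high replicate 1, PSMB8 (0.25) and PSMC4 (0.16) rose at the high dose, where 7.02% of all genes were called. For Zizyphi 0 were called at the high, medium and low doses, where 0.607%, 0.0393% and 0% of all genes were, and 0 between high and low, where 0.674% were. Without that library PSMD12 rose by 0.15 between the doses, where 2.87% were. Across the 17 comparisons of this study with 0 members called by edgeR, DESeq2 also called 0. At an unadjusted p under 0.05 there were 3 members at the low Polygalae dose, 1 each at the low and medium Aucklandiae, low Liriopis, high Longan and low Zizyphi doses against vehicle and between the Zizyphi doses, and 0 in the other 10. Median log2 fold changes of the 34 members were 0.07 at the high Longan dose and 0.03 at the high Zizyphi dose.

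Genes that serve the proteasome were read from lists around it, whose counts are a description to be set beside the share of all genes called, 46.1% at the high dose of Polygalae. Under high Polygalae, 3 of the 5 activators and inhibitors fell: PSME1 (-0.55) and PSME2 (-0.57), the subunits of the 11S activator cap that is used with the immunoproteasome, and PSMF1 (-0.22), an inhibitor. PSME1 had 54.7, 58.1 and 48.5 CPM against 83.4, 77.8 and 75.7 CPM in vehicle, with no overlap. Of 7 other 19S and bound genes 2 rose, ADRM1 (0.44), a ubiquitin receptor of the base, and TXNL1 (0.25). Of 9 assembly chaperones 2 fell, PSMD5 (-0.22) and PSMD10 (-0.29), while POMP, which guides 20S assembly, differed by 0.26 and did not pass (edgeR adjusted p = 0.098). Of 6 ubiquitin and E1 genes 1 rose and 2 fell: UBA1, the main ubiquitin-activating enzyme, fell from 722 to 201 CPM (log2 fold change -1.84, SE 0.04, edgeR adjusted p = 2.7e-35) and UBA6 fell by 0.29. SQSTM1, a ubiquitin receptor for autophagy in the list of shuttle factors, rose by 2.05. VCP, the ATPase that extracts ubiquitinated proteins, fell by 0.58. The list of its cofactors was mixed. NPLOC4 and FAF2 had means of 304 and 162 CPM at the high dose and 225 and 130 CPM at the low dose. FAF1 was at 73 CPM at the high and 79.1 CPM at the low dose. The NRF1 list holds NFE2L1, genes that act on its protein and genes of the MAF family, and it is not a list of NRF1 targets. In it 4 of 8 rose and 3 fell, with log2 differences of -0.33 for NFE2L1 itself (edgeR adjusted p = 0.004), 0.57 for DDI2, the protease that activates NRF1, and -0.89 for SEL1L. Of the 8 NRF2 genes 7 rose with a median of 1.53, among them HMOX1 (4.14) and NFE2L2 (0.61). Of 12 class I genes 2 rose, TAP1 (0.15) and IRF1 (0.45), and 7 fell, among them ERAP1 (-1.4) and HLA-B (-0.59). Of 9 heat shock genes 6 rose and 0 fell, with a median of 0.56. Leaving out Liriopis_high replicate 1, where 54% of all genes were called, the counts up and down were 4 and 2 of the chaperones, 1 and 4 of the ubiquitin and E1 genes, 8 and 0 of the NRF2 genes, 3 and 8 of the class I genes and 6 and 2 of the heat shock genes, with the counts of the activators, the other 19S genes and the NRF1 list the same in both fits.

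At the high dose of Aucklandiae, where 13.2% of all genes were called, 3 of 7 other 19S and bound genes rose, ADRM1 (0.28), USP14 (0.15) and ECPAS (0.33). Of its assembly chaperones and activators 0 passed (POMP 0.15, PSME1 -0.07, PSME2 0), 4 of 8 NRF1 list genes rose without NFE2L1 (-0.01), 7 of 8 NRF2 genes rose (median 0.86) and 0 of 12 class I genes passed (IRF1 0.09). Leaving out Liriopis_high replicate 1, where 22.8% were called, 4 other 19S genes, 2 chaperones, 0 activators, 5 NRF1 list genes and 7 NRF2 genes rose and 5 class I genes fell. At the high dose of Schisandrae, where 50.9% of all genes were called, 6 of 8 NRF1 list genes rose, while NFE2L1 differed by 0.20 (edgeR adjusted p = 0.088), and 7 of 8 NRF2 genes rose and 1 fell (median 0.69, NFE2L2 0.19). In the fit without that library, where 58.6% were called, 7 NRF1 list genes rose, and the NRF2 counts were 7 and 1. TAP1 rose by 0.58 there from 68.4 ± 1.91 to 102 ± 3.6 CPM (SD, n = 3; edgeR adjusted p = 1.7e-12), whereas PSMB9 beside TAP1 differed by -0.01. ADRM1 fell by 0.22, and POMP (-0.10), PSME1 (0.23), PSME2 (0.01) and IRF1 (0.17) did not pass with all libraries, and PSME1 and IRF1 rose without that library. Under wortmannin, where 6.52% of all genes fell, 3 of 7 other 19S and bound genes fell, UCHL5 (-0.37), USP14 (-0.17) and TXNL1 (-0.26), and 6 fell without Liriopis_high replicate 1, where 12.3% did. Of the other named genes ADRM1 (-0.21), POMP (-0.17), PSME1 (0.09), PSME2 (-0.29), NFE2L1 (0), NFE2L2 (-0.01), TAP1 (-0.14) and IRF1 (0.04) did not pass there with all libraries, and ADRM1, POMP and PSME2 fell without Liriopis_high replicate 1.

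Over the 20 group means of log2 CPM, each member's profile was set against the mean of the other standard members, as a description of points that share libraries. The median r was 0.76 (0.13 to 0.96), and 0.71 (-0.35 to 0.95) without Liriopis_high replicate 1. The lowest without it were PSMB9 (-0.35), PSMB10 (-0.24), PSMB8 (-0.15), PSMD1 (0.08) and PSMD2 (0.10). The genes outside the lists closest to the mean of the 31 members were TPRKB (0.942), GLRX3 (0.942), MRPL12 (0.925), CENPX (0.924), CACYBP (0.921), MRTO4 (0.921), MRPL47 (0.92) and LSM4 (0.92). Without that library GLRX3 (0.951), TPRKB (0.893), CIAPIN1 (0.89), CACYBP (0.88), CIP2A (0.879), MRPL12 (0.878), MRTO4 (0.873) and PDCD5 (0.87) were closest. Closest to the mean of PSMB8, PSMB9 and PSMB10, among those given here, were RPL10 (0.928), BST2 (0.923), NUDT16L1 (0.922), RPS9 (0.921), GSTZ1 (0.918), PHPT1 (0.913) and ARL2 (0.911), and without that library NUDT16L1 (0.929), RPS9 (0.91), GSDMD (0.888), BST2 (0.876), NLRP1 (0.87), RPL10 (0.859), B4GAT1 (0.858) and DDAH2 (0.856).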

How the data were processed

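The authors deposited expected counts per gene for the 60 libraries in 1 table. The tools named, per the submitters' processing notes, are FastQC 0.11.9, RSEM 1.3.3, STAR 2.7.3a, Trim Galore 0.6.5, and the build is GRCh38. The kit was directional per the labels' protocols, and the strand setting of the counting is not given in the sources used here. Expected counts were rounded (11.02% were not whole). All 60 libraries entered 1 edgeR 4.0.16 quasi-likelihood fit (R 4.3.3) with a mean per group, TMM scaling, a minimum count of 10 in the expression filter and 40 residual degrees of freedom. Calls needed an adjusted p under 0.05 (Benjamini-Hochberg, over the 17792 genes tested) in each of 30 comparisons and 2 added differences of dose effects. The fit without Liriopis_high replicate 1 tested 18078 genes. Depth limits the members with few counts. Log2 CPM for profiles used a prior count of 2. All comparisons with vehicle share its 3 libraries. The procedure was tested on simulated data drawn from the vehicle means. These held no outlier library and no dependence on transcript length, so that test does not cover the effect of Liriopis_high replicate 1 on the calls.

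All 34 members may be named; from other lists, called genes (at most 4 by smallest p) and NFE2L1, NFE2L2, PSME1, PSME2, POMP, ADRM1, TAP1 and IRF1, and outside them the 8 most alike in profile. A few genes that this rule or the lists would name are not reported here. Members and lists were chosen with earlier results of these data known. Alternatives were DESeq2 1.42.0, other size factors, library totals, no filter, a replicate block and leaving out libraries.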

Additional observations from a re-analysis of the deposited data

Results flagged for a closer look

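The change from low to high dose differed between herbs for several members by a test of the difference itself in edgeR (adjusted p under 0.05), the herbs' doses being unequal for Polygalae. Against Aucklandiae, the dose effect of Polygalae on the log2 scale differed by 0.40 for PSMC6, -0.70 for PSMD1, -0.58 for PSMD2, -0.16 for PSMD3, 0.29 for PSMD11 and -0.27 for PSMD14. Against Polygalae, the dose effect of Schisandrae differed by 0.35 for PSMA5, -0.25 for PSMC5, 0.34 for PSMD1, 0.59 for PSMD2 and -0.38 for PSMD11. PSMD1, PSMD2 and PSMD11 appear in both, and the 2 comparisons share the Polygalae libraries. Both were added after the data had been seen. With all libraries the share of members that differed was below that of all genes in both, by the counts given above. Without Liriopis_high replicate 1 it was slightly above that of all genes.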

How the results depend on the processing

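Under 5 settings other than leaving out a library, 153 of 160 counts of called members stayed within 1.5 times. Library totals alone gave 16 calls for Polygalae high and 4 for Polygalae low against vehicle and 10 for the Schisandrae minus Polygalae dose effect; no filter gave 4 for wortmannin, 1 for Polygalae medium against low, 3 for Polygalae minus Aucklandiae and 3 for Schisandrae minus Polygalae. The cause was not tested. The replicate block gave 19 for Liriopis high against low and changed no other count. No pairing by replicate number was detected, since no comparison had every same-number correlation over 0.1. That rule cannot exclude a weaker pairing.

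Leaving out 1 library at a time, calls ran from 6 to 25 for wortmannin, 0 to 31 for Liriopis high, 0 to 28 for Liriopis high against low, 8 to 20 for Polygalae high, 6 to 18 for medium, 0 to 4 for low, 7 to 15 for Polygalae high against low, 1 to 5 for medium against low, 6 to 18 for Schisandrae high, 6 to 16 for Schisandrae high against low, 2 to 15 for Aucklandiae high, 1 to 9 for Aucklandiae high against low, 0 to 2 for Longan high, 0 to 1 for Zizyphi high against low, 14 to 30 for Schisandrae against Liriopis, 7 to 20 for Polygalae against Aucklandiae, 3 to 13 for Polygalae minus Aucklandiae and 3 to 18 for Schisandrae minus Polygalae, with 0 to 0 in the other comparisons. Outside comparisons that include Liriopis_high, leaving out its replicate 1 gave every high end above 0. The share of all genes called also changed between fits and is not set beside these ranges. They describe the fits and not the members alone.

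Leaving out Liriopis_high replicate 1 turned the sign or took the difference to 0 for members whose log2 fold changes ranged, over single left-out libraries, as follows. Against vehicle: PSMA3 -0.01 to 0.61, PSMA6 -0.03 to 0.68, PSMB2 -0.03 to 0.33, PSMB9 -0.01 to 0.79, PSMD1 0 to 0.31, PSMD6 -0.01 to 0.31, PSMD8 -0.01 to 0.36. High against low: PSMA1 0 to 0.54, PSMA2 -0.03 to 0.9, PSMA3 -0.05 to 0.57, PSMA4 -0.05 to 0.63, PSMA6 -0.07 to 0.64, PSMA7 -0.05 to 0.79, PSMB1 -0.02 to 0.72, PSMB3 -0.01 to 1.03, PSMB4 0 to 0.75, PSMB5 -0.04 to 0.67, PSMB6 -0.13 to 0.76, PSMB8 -0.04 to 0.77, PSMB10 -0.01 to 0.85, PSMC1 -0.03 to 0.45, PSMD4 -0.06 to 0.54. Schisandrae against Liriopis: PSMB5 -0.67 to 0.04, PSMD8 -0.37 to 0. Under library totals PSMD3 turned to 0.02 in Polygalae against Aucklandiae. Low counts limit PSMB9 and PSMB10.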
